A study of Homo sapiens with 12 samples.

Results

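Cassette exons that sit between a pair of short introns were examined in MCF10A, a line of human breast epithelium that does not form tumours. A cassette exon is an exon that is either kept in the mRNA or skipped together with both introns beside it. Of 4992 cassette-exon events listed in all 12 libraries, 373 events in 299 genes had both flanking introns at 500 nt or shorter, measured from the exon coordinates of each event. Inclusion was tested for the 248 of them that had at least 10 isoform-specific reads in every library, and the remaining 2447 tested events were the comparison. Isoform-specific reads are those compatible with 1 of the 2 forms alone, the included or the skipped one. The 248 tested events lay in 203 genes and held 244 different cassette exons, so that 8 events shared their cassette exon with another and are not independent of it.

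The cells stably carried 1 of 3 constructs: the empty MSCV vector, wild-type TIP60 that the siRNA does not target, or siRNA-resistant TIP60 without catalytic activity, here called dead TIP60. Each of these 3 lines was given control siRNA or TIP60 siRNA and harvested after 72 h, which made 6 groups of 2 libraries, numbered replicate 1 and replicate 2. All groups therefore shared the MCF10A background and a stable vector, and the resistant constructs allow the siRNA effect to be compared with and without TIP60 from another source. The labels do not say that replicates were separate cultures, so the p-values measure the spread between these libraries only.

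TIP60, encoded by KAT5, is a lysine acetyltransferase and the catalytic subunit of the NuA4 complex, which acetylates histones and other nuclear proteins. Splice sites across a short intron can be paired across the intron itself, which is called intron definition, whereas sites beside long introns are usually paired across the exon. Short human introns tend to be rich in G and C and often hold runs of G, which are known to act as intronic splicing enhancers.

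Sequences of 6 coding cassette exons among those of smallest p are printed so that their makeup can be read directly. They come from GENCODE release 29 transcripts (GRCh38), each in the direction of transcription with runs of 3 or more G in capitals. MST1R, HDAC7 and ARHGEF1 are exons that fell under TIP60 siRNA in at least one of the fits described below, and the PHPT1 exon is the contrasting case of an exon that is almost always skipped. NEURL4, with no GGG, and CDCA3, with 1, show that the makeup varies. The MST1R exon lies between the shortest introns of these, 87 and 80 nt.
MST1R exon, chr3:49895961-49896107, minus strand: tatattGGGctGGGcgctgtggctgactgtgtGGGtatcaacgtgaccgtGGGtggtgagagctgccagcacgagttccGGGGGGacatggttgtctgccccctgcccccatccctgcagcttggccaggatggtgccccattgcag
HDAC7 exon, chr12:47795906-47796016, minus strand: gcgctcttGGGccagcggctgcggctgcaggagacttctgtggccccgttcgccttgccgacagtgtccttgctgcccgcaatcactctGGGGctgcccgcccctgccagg
PHPT1 exon, chr9:136850506-136850560, plus strand: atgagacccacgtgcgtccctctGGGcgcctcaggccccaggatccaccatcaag
ARHGEF1 exon, chr19:41906457-41906620, plus strand: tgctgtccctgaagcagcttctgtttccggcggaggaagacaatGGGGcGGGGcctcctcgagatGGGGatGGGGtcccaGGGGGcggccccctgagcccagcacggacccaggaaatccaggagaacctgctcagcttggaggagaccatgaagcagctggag
NEURL4 exon, chr17:7327165-7327230, minus strand: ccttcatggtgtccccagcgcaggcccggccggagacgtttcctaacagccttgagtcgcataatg
CDCA3 exon, chr12:6849323-6849429, minus strand: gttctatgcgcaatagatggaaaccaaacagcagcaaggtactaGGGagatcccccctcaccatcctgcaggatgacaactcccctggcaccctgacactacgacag
The G+C content was 63.3% in the MST1R exon, 70.3% in the HDAC7 exon, 65.5% in the PHPT1 exon, 64.6% in the ARHGEF1 exon, 60.6% in the NEURL4 exon and 54.2% in the CDCA3 exon.

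Exon G+C content was higher in the group than in the rest of the tested events, although the rule used intron length alone. The median exon had 58.8% G+C among 232 exons between short introns whose sequence could be read, 54.9% among 568 exons with 1 short intron and 48.9% among 1725 with none. The quartiles were 52.8% and 64.3% between short introns, and 43.2% and 57.9% over the 2293 other exons. The motif GGG, searched on the transcribed strand, occurred in 78.9% of the exons between short introns and in 71.4% of the other exons. The motif CCC occurred in 83.2% and 73.1%, so the difference was not particular to runs of G. Introns could be read for 45 tested short-intron events, from transcripts that keep both introns, and introns of the other events were not read. These 90 introns had a median length of 179 nt and a median G+C content of 57.6%, 85 of them (94.4%) held GGG, and all 90 began with GT and ended with AG. These are descriptions with no test, and transcripts that keep both introns are not a random draw of such events.

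**Figure D1:**
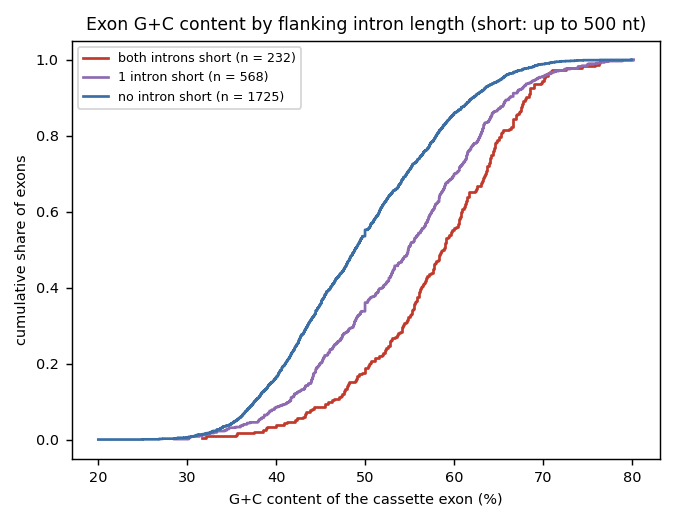
Cumulative share of cassette exons (vertical axis) by their G+C content in % (horizontal axis), for tested events with both, 1 or no flanking intron at 500 nt or shorter. The line for both introns short lies to the right of the other 2 lines over most of the range, with medians of 58.8%, 54.9% and 48.9%.

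The exons themselves had ordinary lengths. Their median was 121 nt against 126 nt for the other events, with a range from 12 to 2058 nt, and 57.7% were a multiple of 3 nt against 56.0%. By the annotation, 202 of the 248 (81.5%) were coding, 14 lay in 5' UTRs, 2 in 3' UTRs, 10 were partly coding and 4 noncoding, and 16 on alternate contigs were not placed. Among the other events 69.6% were coding. Chromosomes 11, 16, 17 and 19 held 92 of the 248 events (37.1%) and 644 of all 2695 tested events (23.9%). No rule set this group of 4, and other chromosomes went either way. Chromosome 1 held the most events (29, 11.7% against 9.42% of all tested events), and X held 4.84% against 2.30%. Chromosomes 20 and 22 held 1.21% each, against 2.67% and 2.52%. The median flanking introns were 205 nt upstream and 192 nt downstream, and the shortest was 72 nt. Under control siRNA the median inclusion level, the share from 0 to 1 of transcripts with the exon, was 0.883 against 0.865 for the other events.

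Depth differed between the replicate numbers more than between groups. Reads that fitted an event, over all listed events, numbered 1983221 to 2280488 in the replicate 1 libraries and 1277953 to 1566296 in the replicate 2 libraries. The median tested short-intron event had 116.5 to 135 isoform-specific reads in replicate 1 libraries and 72.5 to 99 in replicate 2 libraries, and its 95% interval of the inclusion level was 0.10 to 0.13 and 0.13 to 0.17 wide. Over all 373 short-intron events, tested or not, reads that matched neither form made up 47.5% to 52.4% in replicate 1 libraries and 68.4% to 70.5% in replicate 2 libraries. The other events listed in all 12 libraries had 45.8% to 47.9% and 61.4% to 63.2%. The part of that difference in the results was not tested. Of 20 breast epithelial marker genes, 5 (CDH1, ESRP1, ITGB4, LAMA3 and TP63) had an event in all libraries, with summed reads of 2445 to 4050 per 1000000 fitting reads (RPM) under control siRNA and 2668 to 4531 under TIP60 siRNA. Of 13 mesenchymal markers 2 did (DCN and FN1), at 83.0 to 953 RPM and 218 to 2655 RPM, and no immune (of 8) or endothelial (of 4) marker did. The part of the mesenchymal markers in the results was not tested.

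KAT5, the gene targeted by the siRNA, is itself among the 373 events, through a 156-nt exon at chr11:65713348-65713503 between introns of 289 and 89 nt. It fell below the read minimum, with as few as 2 isoform-specific reads in a library, and was not tested. Reads with the exon numbered 17.2 and 5.84 RPM in the 2 controls with empty vector and 2.52 and 1.52 RPM after TIP60 siRNA. In wild-type TIP60 cells they numbered 11.6 and 5.31 RPM under control siRNA and 2.74 and 1.34 RPM under TIP60 siRNA. In dead TIP60 cells the values were 12.02 and 6.38 RPM, then 3.95 and 0 RPM, where 0 reads allow up to 2.35 RPM (3 counts). In each line both TIP60-siRNA libraries lay below both control libraries, which is the direction the siRNA labels give.

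Reads without the KAT5 exon set the construct lines apart. They numbered 8.38 and 0.731 RPM in empty-vector control cells, 2291 and 93.0 RPM in wild-type TIP60 control cells and 988 and 35.1 RPM in dead TIP60 control cells. Under TIP60 siRNA the empty-vector line had 2.52 and 0 RPM, the wild-type line 1654 and 76.8 RPM and the dead line 885 and 28.2 RPM. All 8 libraries of the construct lines were above all 4 empty-vector libraries, and replicate 1 exceeded replicate 2 in each pair. These reads cannot be divided between the endogenous gene and the construct.

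TIP60 siRNA lowered the inclusion of 4 short-intron exons when its effect was averaged over the 3 lines, and raised none (limma, adjusted p under 0.05). The exons in ANKRD13D, MST1R and HDAC7 were 3 of them. Over all 2695 tested events 2.19% were called, 1.93% lower (52) and 0.26% higher (7), so 4 of 248 (1.61%) is near the background and is no result about short introns. Adding the replicate number to the model as a block, which took up the offset between the 2 sets of libraries, gave 8 calls, all lower, against 4.27% of all events; the 4 added exons are in COMMD4, SPNS1, ARHGEF1 and TCEAL9. The quasi-binomial model of the reads gave 5 calls (1.45% of all events), and 12 with the block (3.86%).

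ANKRD13D encodes an ankyrin-repeat protein that binds ubiquitinated membrane receptors, and its 137-nt exon (ENSG00000172932.14, chr11:67289829-67289965, plus strand) lies in the 5' UTR between introns of 278 and 112 nt. Its inclusion level was 0.39 and 0.32 in the control libraries with empty vector and 0.09 and 0.10 after TIP60 siRNA. In wild-type TIP60 cells it was 0.54 and 0.36, then 0.18 and 0.21, and in dead TIP60 cells 0.36 and 0.46, then 0.13 and 0.09. The 6 TIP60-siRNA libraries were all below the 6 control libraries. The siRNA difference, averaged over the lines, was -0.272 (SE 0.0356, limma adjusted p = 0.0295), on 17 to 76 isoform-specific reads per library.

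MST1R (ENSG00000164078.12) encodes the receptor tyrosine kinase RON of epithelial cells, for which a shortened, constitutively active form made by skipping of an exon is known. Its 147-nt exon, a multiple of 3, lies between introns of 87 and 80 nt. Inclusion was 0.77 and 0.78 in empty-vector controls and 0.33 and 0.50 after TIP60 siRNA. With wild-type TIP60 it was 0.70 and 0.78, then 0.38 and 0.28, and with dead TIP60 0.67 and 0.87, then 0.47 and 0.61. The highest TIP60-siRNA library (0.61) was below the lowest control library (0.67). Averaged over the lines, MST1R differed by -0.333 (SE 0.0507, limma adjusted p = 0.0361), on only 15 to 66 isoform-specific reads per library.

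HDAC7 (ENSG00000061273.17), a class IIa histone deacetylase, had the largest averaged difference of the 4 called exons. Its 111-nt exon lies between introns of 190 and 138 nt. Inclusion was 0.50 and 0.70 in empty-vector controls and 0.29 and 0.38 after TIP60 siRNA. It was 0.78 and 0.91, then 0.29 and 0.37, with wild-type TIP60, and 0.58 and 0.77, then 0.25 and 0.50, with dead TIP60. Replicate 2 was above replicate 1 in all 6 groups, the groups touched at 0.50, and each of the 6 same-number pairs was lower under TIP60 siRNA. The averaged difference was -0.36 (SE 0.0642, limma adjusted p = 0.0438), on 10 to 98 isoform-specific reads per library. HDAC7 was also called within a single line in limma, in wild-type TIP60 cells with the block (-0.515, limma adjusted p = 0.0210; 0.581 without the block), where 0.148% of all events were called.

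These 4 calls rest on all 12 libraries, and exons called in an omission need not be the same 4. Leaving out any 1 library moved the calls to between 0 and 4. The adjusted p of MST1R then reached 0.0501 to 0.107 and that of HDAC7 0.0581 to 0.123, so neither passed without any one of them. ANKRD13D passed in 3 of the 12 omissions (replicate 1 of empty-vector TIP60 siRNA, and either wild-type control library) and reached 0.0827. The direction of these 3 did not change in any omission. The omissions above were fitted without the block. On all 12 libraries with the block, the limma adjusted p was 0.0166 for ANKRD13D, 0.0157 for MST1R and 0.00254 for HDAC7, where 4.27% of all events were called.

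The 4 exons called only with the block showed a replicate offset beside the siRNA difference. SPNS1 encodes a lysosomal lysophospholipid transporter, and its 156-nt coding exon at chr16:28981901-28982056 was included at 0.91 and 0.83 in control libraries of the empty-vector line and at 0.80 and 0.58 after TIP60 siRNA. The values were 0.94 and 0.83, then 0.82 and 0.71, with wild-type TIP60 and 0.92 and 0.90, then 0.72 and 0.64, with dead TIP60. Replicate 2 was lower than replicate 1 in all 6 groups, and all 6 pairs were lower under TIP60 siRNA (averaged difference -0.177, limma adjusted p = 0.137 without and 0.0184 with the block).

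ARHGEF1, a guanine nucleotide exchange factor for RhoA, had a 164-nt exon with a similar picture. Inclusion was 0.92 and 0.80, then 0.72 and 0.40, in empty-vector cells, 0.91 and 0.72, then 0.78 and 0.56, with wild-type TIP60, and 0.93 and 0.89, then 0.45 and 0.52, with dead TIP60. Control and TIP60-siRNA libraries overlapped over the 3 lines (lowest control 0.72, highest TIP60 siRNA 0.78), while each of the 6 pairs was lower. Averaged, ARHGEF1 differed by -0.29 (limma adjusted p = 0.121 without and 0.0354 with the block).

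TCEAL9, an X-linked member of the TCEAL family, had a 79-nt exon in its 5' UTR, at chrX:103357083-103357161 between introns of 476 and 453 nt. Inclusion was 0.91 and 0.80, then 0.76 and 0.52, in empty-vector cells, 0.93 and 0.79, then 0.87 and 0.56, with wild-type TIP60, and 0.87 and 0.79, then 0.80 and 0.59, with dead TIP60. Replicate 2 was lower throughout, and the averaged difference was -0.165 (limma adjusted p = 0.461 without and 0.0494 with the block).

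COMMD4, of the COMMD family of trafficking regulators, differed by far less. Its 177-nt coding exon at chr15:75339702-75339878 was included at 0.93 and 0.94, then 0.85 and 0.88, in empty-vector cells, at 0.95 and 0.98, then 0.93 and 0.97, with wild-type TIP60, and at 0.97 and 0.98, then 0.91 and 0.95, with dead TIP60. The averaged difference was -0.043 (limma adjusted p = 0.150 without and 0.0164 with the block), on 149 to 567 isoform-specific reads per library. The plot of inclusion by library shows 7 of these exons side by side.

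**Figure D2:**
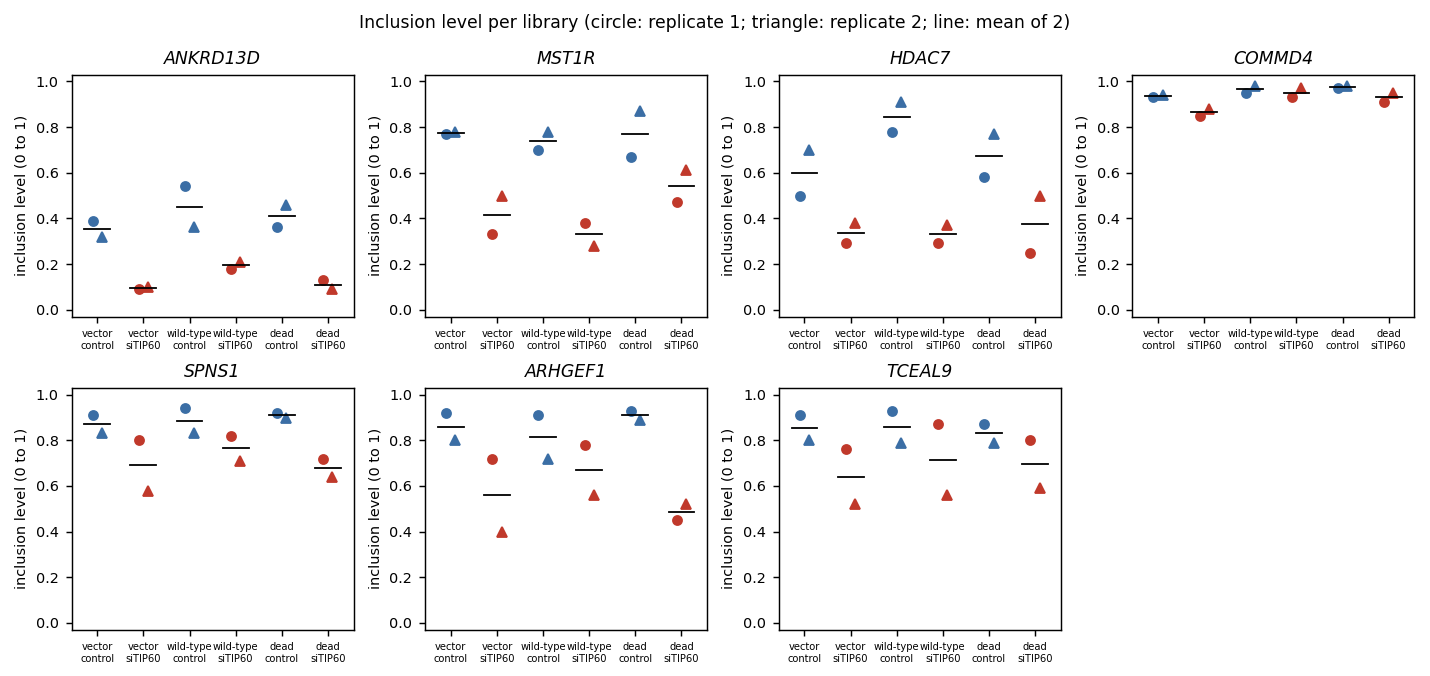
Inclusion level (0 to 1, vertical axis) of 7 short-intron cassette exons in each of 12 libraries, by construct and siRNA (blue: control siRNA; red: TIP60 siRNA; circle and triangle: replicates 1 and 2; line: mean of 2). In ANKRD13D and MST1R every red point is below every blue point, and in SPNS1, ARHGEF1 and TCEAL9 the control triangles are below the control circles.

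Among the 12 short-intron exons of smallest p in the averaged comparison, 6 more passed no threshold in limma on all 12 libraries, with or without the block. All 6 leaned lower. PHPT1 and ACAA1 did pass in the quasi-binomial model with the block (adjusted p = 0.0342 and 0.0433). NEURL4, an adaptor of a ubiquitin ligase at centrioles, had a 66-nt exon at 0.80 and 0.88, then 0.86 and 0.74, in empty-vector cells. It stood at 0.88 and 0.94, then 0.69 and 0.77, with wild-type TIP60 and at 0.90 and 0.88, then 0.68 and 0.67, with dead TIP60. Groups were apart in both construct lines and overlapped in empty-vector cells (averaged difference -0.145, limma adjusted p = 0.0565). ACAA1, a peroxisomal thiolase of fatty acid oxidation, had a 180-nt exon at 0.85 and 0.67, then 0.48 and 0.67, at 0.77 and 0.83, then 0.59 and 0.78, and at 0.91 and 0.86, then 0.39 and 0.59, in the empty-vector, wild-type and dead TIP60 lines. Its averaged difference was -0.232 (limma adjusted p = 0.139), and its groups were apart only in the dead TIP60 line.

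IMPDH1, which makes guanine nucleotide precursors, had a 75-nt exon at 0.94 and 0.95, then 0.83 and 0.66, in empty-vector cells. With wild-type TIP60 it was at 0.98 and 0.93, then 0.87 and 0.94, and with dead TIP60 at 0.97 and 0.96, then 0.88 and 0.80. The groups overlapped in the wild-type line only (averaged difference -0.125, limma adjusted p = 0.139). CDCA3, a trigger of mitotic entry, had a 107-nt exon between 0.92 and 0.97 in the 6 control libraries and between 0.82 and 0.90 in the 6 TIP60-siRNA libraries. These ranges do not overlap, but the averaged difference of -0.07 had a limma adjusted p of 0.133. A 105-nt exon that matched 2 genes equally well, RNASEK-C17orf49 being 1, averaged 0.855 and 0.803 (adjusted p = 0.139).

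PHPT1, a protein histidine phosphatase, stood at the other end of the scale. Its 55-nt exon was included at 0.02 to 0.08 in the 6 control libraries and at 0.01 to 0.02 in the 6 TIP60-siRNA libraries. The ranges touch at 0.02, and the averaged difference was -0.037 (limma adjusted p = 0.0931). Counted by pairs, 26 of the 248 exons (10.5%) were lower under TIP60 siRNA in 6 of 6 same-number pairs and 2 were higher, against 9.46% and 2.34% of all tested events.

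Below the threshold, the short-intron exons leaned to less inclusion, as did the other events. At an unadjusted p under 0.05 in limma, 25 of 248 were lower (10.1%) and 1 was higher (0.403%) in the averaged comparison, beside 9.76% lower and 2.56% higher among all tested events. The share that was lower is near the background, and a smaller share was higher; the difference between the 2 sets of events was not tested. The median averaged difference was -0.01 for the short-intron exons and -0.0067 for the others, with means of -0.0274 and -0.0162. By intron class, 10.1% were lower and 0.403% higher with both introns short, 11.2% and 2.17% with 1 short, and 9.21% and 2.997% with none short.

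**Figure D3:**
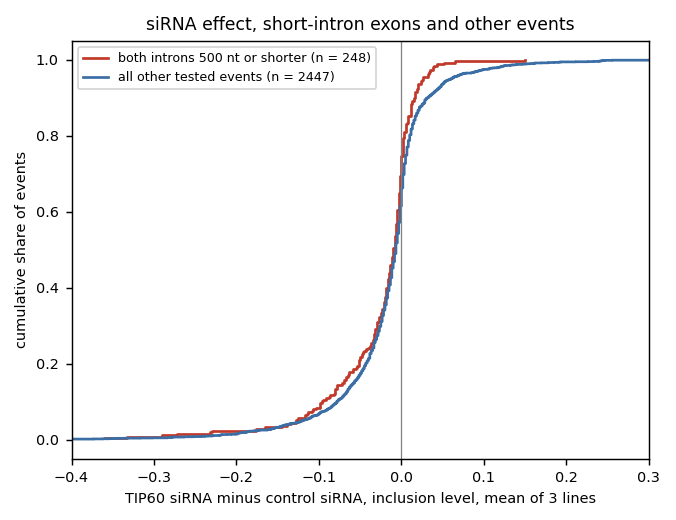
Cumulative share of events (vertical axis) by the averaged siRNA difference in inclusion level (horizontal axis, TIP60 siRNA minus control siRNA, mean of 3 lines), for 248 short-intron exons and 2447 other tested events. The difference was below 0 in 179 of 248 short-intron exons and 1550 of 2447 other events, and the short-intron line reaches 1 sooner.

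The only short-intron exon that was higher at this level was in DPH2, an enzyme of diphthamide synthesis. Its 684-nt coding exon was included at 0.94 and 0.94, then 0.97 and 0.97, in empty-vector cells, at 0.96 and 0.96, then 0.94 and 0.96, with wild-type TIP60, and at 0.92 and 0.95, then 0.96 and 0.99, with dead TIP60. TIP60 siRNA lay above control in the empty-vector and dead lines and not in the wild-type line. The averaged difference was 0.02 (SE 0.00765, limma adjusted p = 0.328).

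The same counts were split by the level under control siRNA. Of short-intron exons at 0.2 or less under control siRNA, 3 of 38 were lower and 0 higher at an unadjusted p under 0.05 in limma, beside 19 and 24 of 468 other events. Between 0.2 and 0.8, 5 of 47 were lower and 0 higher, beside 64 and 30 of 533. Above 0.8, 17 of 163 were lower and 1 higher, beside 155 and 14 of 1446. With the block, 46 of all 248 were lower and 4 higher at that level, against 15.6% and 4.30% of all events, and with the quasi-binomial model 36 and 0, against 10.7% and 2.93%.

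All 25 lower exons were between 51 and 250 nt long, a class that held 211 of the 248. None of 13 exons up to 50 nt and none of 24 longer than 250 nt was lower, beside 11.7% and 7.75% of the other events of those lengths and 9.86% of those between. By the longer of the 2 flanking introns, 5 of 37 were lower up to 150 nt, 12 of 85 from over 150 to 300 nt and 8 of 126 from over 300 to 500 nt (13.5%, 14.1% and 6.35%). Among exons whose length is a multiple of 3, 13 of 143 were lower (9.09%), and of the rest 12 of 105 (11.4%), beside 10.6% and 8.64% of the other events. Of 5' UTR exons 3 of 14 were lower, beside 6.48% of 5' UTR exons among the other events (ANKRD13D, AMIGO2 and ALAS1, the last the first enzyme of heme synthesis). These are counts at an unadjusted p and the strata were not tested against each other.

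**Figure D4:**
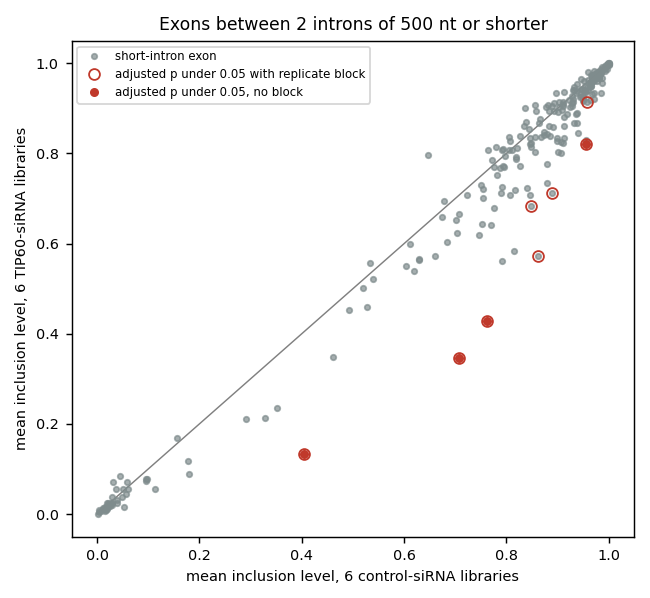
Mean inclusion level of 248 short-intron exons in the 6 TIP60-siRNA libraries (vertical axis) against the mean in the 6 control-siRNA libraries (horizontal axis); the line marks equal levels, filled red points passed an adjusted p of 0.05 without the replicate block and open red circles with it. All 8 marked exons lie below the line, and most exons lie near it at either end of the scale.

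Within single lines no short-intron exon passed the adjusted threshold in limma without the block. In empty-vector cells limma called 0 of 248 (0.0371% of all events, 1 of 2695), with 11 lower and 0 higher at an unadjusted p under 0.05, where 6.6% of all events were (5.12% lower, 1.48% higher). In wild-type TIP60 cells it called 0 (0 of all events), with 6 lower and 0 higher, where 3.60% and 0.705% of all events were. In dead TIP60 cells it called 0 (0.0371% of all events), with 19 lower and 2 higher, where 6.75% of all events were (5.71% lower, 1.04% higher). The block gave 0, 1 and 0 calls, against 0.148%, 0.148% and 0.371% of all events. The quasi-binomial model gave 0 in each line (0 of all events), and with the block 0, 0 and 1. The last was the only such call among all events (0.0371%), in LRRC75A-AS1 (-0.12, quasi-binomial adjusted p = 0.0237 with the block), named after its value was seen. The share of isoform-specific reads in place of the MISO level gave 1 call in empty-vector and 2 in dead TIP60 cells. Calls over all events were not counted for that share, so these have no background beside them. Exons whose TIP60-siRNA libraries both lay at least 0.1 below both control libraries numbered 7 in empty-vector cells, 6 with wild-type TIP60 and 7 with dead TIP60 (2.60%, 2.19% and 3.41% of all events). None lay at least 0.1 above in any line (0.891%, 0.334% and 0.705% of all events).

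The largest non-overlapping differences to higher inclusion are given by line, and none passed the test. In empty-vector cells they were RCE1, the protease that trims prenylated proteins (0.84 and 0.84, then 0.93 and 0.93), the kinase STK16 (0.88 and 0.80, then 0.93 and 0.91) and PYCR1 of proline synthesis (0.79 and 0.88, then 0.90 and 0.92). In wild-type TIP60 cells they were an event on an alternate contig of chromosome 6 (0.83 and 0.62, then 0.90 and 0.84), HCFC1R1, a binding partner of the cofactor HCF-1 (0.59 and 0.67, then 0.71 and 0.70), and WRAP53, needed for telomerase trafficking (0.87 and 0.90, then 0.91 and 0.95). In dead TIP60 cells they were TNIP2, an inhibitor of NF-kappaB signalling (0.80 and 0.80, then 0.92 and 0.86), the nucleosome-binding HMGN3 (0.06 and 0.02, then 0.10 and 0.07) and DPH2. Each of these genes overlapped or leaned the other way in at least 1 other line: TNIP2, for example, was at 0.91 and 0.87, then 0.80 and 0.85, with wild-type TIP60.

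The siRNA effect was then compared between lines, which asks whether a resistant construct changed it. No short-intron exon and no other event was called for any of the 3 differences (0 of 248 and 0 of 2695; limma, limma with the block and the quasi-binomial model). At an unadjusted p under 0.05 in limma, 1 short-intron exon had a lower and 2 a higher effect in wild-type than in empty-vector cells (1.71% of all events), 3 and 2 in dead than in empty-vector cells (1.34%), and 2 and 2 in dead than in wild-type cells (1.19%; 0.779% lower, 0.408% higher). A difference that misses the threshold does not show that the lines responded alike.

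AMIGO2, an adhesion protein of the cell surface, had the smallest p of these comparisons. Its 107-nt 5' UTR exon at chr12:47079142-47079248, between introns of 213 and 76 nt, was included at 0.61 and 0.54 in control libraries of the empty-vector line and at 0.37 and 0.36 after TIP60 siRNA. With wild-type TIP60 it was at 0.50 and 0.43, then 0.46 and 0.50, and with dead TIP60 at 0.52 and 0.57, then 0.51 and 0.55. The groups were apart in empty-vector cells and overlapped in both construct lines. The siRNA effect was -0.21 (SE 0.0370, limma adjusted p = 0.22) in empty-vector cells, and it was higher by 0.225 (SE 0.0523) in wild-type and by 0.195 (SE 0.0523) in dead TIP60 cells, each with an adjusted p of 1. Control libraries averaged 0.575 with empty vector, 0.465 with wild-type and 0.545 with dead TIP60. The difference between the wild-type and empty-vector effects therefore lies partly in the control libraries. The exon had only 13 to 61 isoform-specific reads per library.

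The HDAC7 effect was -0.265 in empty-vector, -0.515 in wild-type and -0.30 in dead TIP60 cells, and the wild-type effect was lower than the empty-vector effect by 0.25 on the inclusion scale (SE 0.157, or 0.0636 with the block, limma adjusted p = 1 in both). WDR74, a ribosome biogenesis factor, was at 0.94 and 0.94, then 0.96 and 0.97, in empty-vector cells but at 0.97 and 0.98, then 0.95 and 0.94, with wild-type TIP60 and at 0.97 and 0.99, then 0.92 and 0.96, with dead TIP60. Its effect was lower than in empty-vector cells by 0.055 and 0.065 (SE 0.021 each, limma adjusted p = 1). For the share of isoform-specific reads these differences were -0.037 and -0.039 (limma adjusted p = 0.0372 and 0.0149). The dead construct effect under control siRNA was then 0.026 (limma adjusted p = 0.0243). Calls over all events were not counted for that share.

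The constructs alone, under control siRNA, moved no short-intron exon past the threshold (0 of 248 and 0 of 2695 for either construct; limma, the block and the quasi-binomial model). At an unadjusted p under 0.05 in limma, 1 was lower and 4 were higher with wild-type TIP60 (1.60% of all events), and 0 and 1 with dead TIP60 (0.853%). The lower one was the 107-nt AMIGO2 exon (difference -0.11, SE 0.0370). CSF3, the granulocyte colony-stimulating factor, stood at 0.90 and 0.92 in control cells with empty vector, 0.99 and 0.97 with wild-type TIP60 and 0.99 and 0.94 with dead TIP60. The empty-vector libraries were the lowest in that order, and the limma adjusted p was 1 for both constructs. None of the 248 exons had construct and empty-vector libraries at least 0.1 apart. Among all tested events 0.223% were lower and 0.371% higher by that measure with wild-type TIP60, and 0.297% and 0.26% with dead TIP60. A count of 0 is near that background.

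Few tested events of any kind lay in the listed genes of splicing or of the TIP60 complex. No tested member was in 25 SR and related proteins, 29 factors of splice site recognition or 28 tissue splicing regulators. Only 6, 4 and 10 genes of these lists had a tested event at all, with 8, 5 and 13 events. As 248 of all 2695 tested events were short-intron exons, these counts of 0 are no result about splicing genes. Among 25 hnRNP genes, HNRNPC, which binds uridine tracts in pre-mRNA, held 2 tested events; its 161-nt exon was at 1.00 in 10 libraries and at 0.99 in both empty-vector TIP60-siRNA libraries (limma adjusted p = 0.354). That difference equals the last decimal of the deposited values. RUVBL2, an ATPase of the NuA4 complex, BAX, a promoter of apoptosis, and 3 of 34 actin and adhesion genes (CTNND1, FLNA and ITGB4) had a tested member each, with 0 at an unadjusted p under 0.05 for any siRNA comparison in limma (and 0 called).

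Further readouts were taken from reads of the same events. The total of reads fitting an event, in RPM, was tested for all 373 short-intron events, and 5 were called, 4 higher and 1 lower (limma; 0.741% of all 4992 events). In bulk RNA, fewer cells of a kind and less RNA per cell cannot be told apart. TAX1BP3, a small PDZ-domain protein, had 1437 and 922 RPM in the 2 controls with empty vector and 2913 and 2690 RPM after TIP60 siRNA. With wild-type TIP60 it had 753 and 999 RPM, then 1520 and 2022 RPM, and with dead TIP60 1032 and 1067 RPM, then 2801 and 3274 RPM. All 6 TIP60-siRNA libraries were above all 6 control libraries (log2 difference 1.27, SE 0.17, limma adjusted p = 0.0251), while inclusion stayed between 0.96 and 0.98 in every library.

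AMIGO2 gave 2 of the calls through overlapping events that share most of their reads. Its 107-nt event had 163 and 108 RPM, then 498 and 421 RPM, in empty-vector cells, 117 and 225 RPM, then 470 and 372 RPM, with wild-type TIP60, and 115 and 160 RPM, then 399 and 377 RPM, with dead TIP60. The groups did not overlap (log2 difference 1.55, SE 0.23, limma adjusted p = 0.0316). Event reads were thus higher in all 3 lines, whereas inclusion of the exon was apart in empty-vector cells alone; the difference between the lines was not called.

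GLMP, a glycoprotein of the lysosomal membrane, had 179 and 164 RPM, then 386 and 320 RPM, in empty-vector cells. It had 177 and 136 RPM, then 301 and 291 RPM, with wild-type TIP60 and 214 and 169 RPM, then 386 and 476 RPM, with dead TIP60 (log2 difference 1.04, SE 0.17, limma adjusted p = 0.0448). TNFRSF1A, the receptor 1 of tumour necrosis factor, was the lower one. It had 223 and 243 RPM, then 107 and 78.8 RPM, in empty-vector cells, 233 and 258 RPM, then 141 and 93.5 RPM, with wild-type TIP60, and 245 and 215 RPM, then 125 and 83.7 RPM, with dead TIP60 (log2 difference -1.20, SE 0.21, limma adjusted p = 0.0485). In both genes control and TIP60-siRNA libraries did not overlap.

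**Figure D5:**
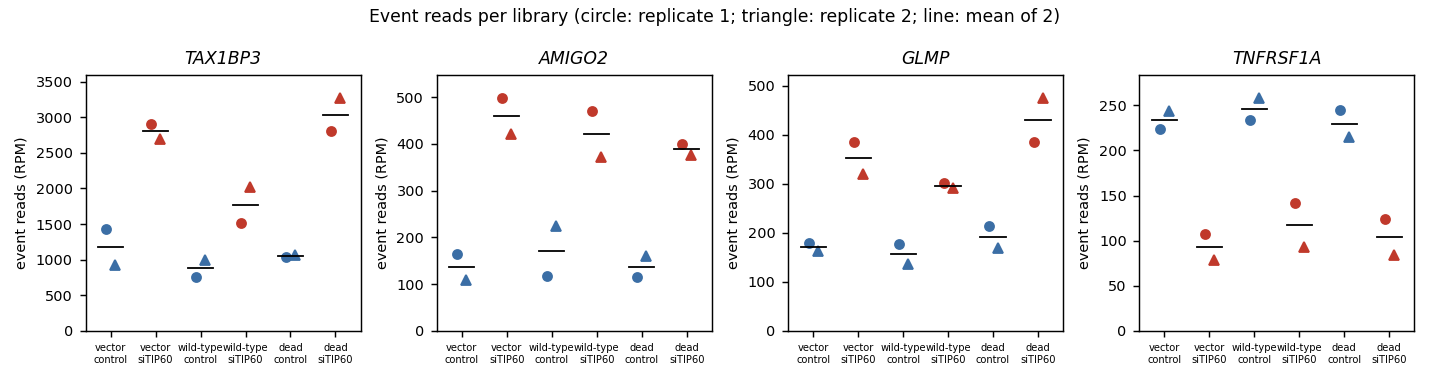
Reads fitting either form of the event (RPM, vertical axes start at 0) in 12 libraries for the 4 genes called in this readout (blue: control siRNA; red: TIP60 siRNA; circle and triangle: replicates 1 and 2; line: mean of 2). TAX1BP3, AMIGO2 and GLMP are higher and TNFRSF1A lower in all TIP60-siRNA libraries.

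The number of such calls depended on scaling and the block. With TMM scaling none of the 5 events passed (adjusted p 0.0625 to 0.077; 0.381% of all events called). The log2 differences were then 1.37 for TAX1BP3, 1.64 and 1.65 for the AMIGO2 events, 1.14 for GLMP and -1.10 for TNFRSF1A, and the median of all events was -0.01 in place of -0.10. The cause of the lost calls was not tested. With the block 65 short-intron events were called, 32 lower and 33 higher (10.7% and 6.03% of all events), and with the block and TMM scaling 56, 21 lower and 35 higher (8.67% and 7.03%). The median log2 difference was 0.01 for short-intron events and -0.11 for the others, or 0.10 and -0.02 with TMM scaling. Without any 1 library 0 or 1 event was called. Of the named exons with lower inclusion, HDAC7 (log2 difference -0.90, limma adjusted p = 0.651 without and 0.0302 with the block) and MST1R (-0.76, 0.391 and 0.0466) had fewer event reads with the block. The exon matched to RNASEK-C17orf49, also lower in inclusion, had more (1.23, limma adjusted p = 0.261 without and 0.00283 with the block). Others leaned either way without a call, such as COMMD4 (0.71) and CDCA3 (-0.39). Event reads include reads on the exon itself, so this readout is not independent of inclusion. How much of these differences goes with lower inclusion was not tested.

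The reads that fit neither form, which can include intron reads, gave no call without the block (limma, 0 of 373 and 0 of 4992). At an unadjusted p under 0.05 in limma, 0 of 373 passed, beside 0.741% of all events. With the block 3 were called, 1 lower and 2 higher (0.581% of all events). At an unadjusted p under 0.05, 12 of 373 were then lower and 25 higher, beside 5.53% and 7.47% of all events. Without the block the offset between replicate numbers stays in the spread, so the lack of calls does not show unchanged reads. GPR137, a lysosomal membrane protein, had the smallest p. Its share of neither-form reads was 48.0% and 59.9%, then 68.7% and 82.4%, in empty-vector cells, 55.2% and 68.6%, then 65.2% and 75.6%, with wild-type TIP60, and 50.5% and 63.6%, then 56.1% and 78.3%, with dead TIP60. Each of the 6 pairs was higher under TIP60 siRNA and replicate 2 was higher throughout (log2 odds difference 0.89, SE 0.43, limma adjusted p = 1.00 without and 0.0742 with the block). ZNF497, a zinc finger protein whose event matched 2 genes and had at most 8 isoform-specific reads, leaned lower (-0.78, SE 0.39, limma adjusted p = 1.00).

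Around the limit of 500 nt, the exons just inside were PABPC4, a poly(A)-binding protein, TNIP2 (both with a longer intron of 500 nt) and BRPF1, a chromatin reader (499 nt), with averaged differences of 0.025, 0.012 and -0.098. Just outside were FBXL19 (503 nt), ISOC2 (503 nt) and PHB2 (507 nt), with 0.0083, -0.283 and 0.0017. The PHB2 exon has 6 nt. None of these exons passed in limma without or with the block. ISOC2 replicates lay far apart, at 0.19 and 0.80 in empty-vector controls (SE 0.172, limma adjusted p = 0.651 without and 0.122 with the block). The quasi-binomial model with the block gave ISOC2 an adjusted p of 0.0387. Of the 373 events, 125 stayed untested for lack of reads, 11 of them with 0 isoform-specific reads in at least 1 library; their median event had 18 such reads.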

How the data were processed

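RNA from 12 libraries was made with TRIzol and a stranded mRNA kit and, per the submitters' processing notes, aligned with STAR to hg38, with no STAR version named. Per the file headers, the authors deposited MISO posterior means of the inclusion level, a fraction from 0 to 1 with 2 decimals and interval bounds (taken as 95%), and read numbers by the form they fit, as MISO class counts, which are raw. Introns were the gaps between the 3 sorted exons of an event. Genes and exon sequences came from GENCODE release 29 (GRCh38), by matching splice sites. The members and gene lists were chosen with earlier results of these data known.

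Levels were fitted with limma 3.58.1 (R 4.3.3), 6 groups, variance trend on log2 reads and robust option, two-sided, Benjamini-Hochberg over 2695 events, threshold 0.05. Event reads were log2(RPM + 0.5); a fold on that scale understates low events. Neither-form reads were log2 odds with 0.5 added. The same-number libraries deviated together in all 15 pairs of groups (r 0.706 to 0.779), so the numbers pair the samples; the source of the pairing is the data, since the labels give only a number. Alternatives were other read minimums, log2 odds, the share of isoform-specific reads, the replicate block, a quasi-binomial model, only the compared libraries, primary chromosomes, other intron limits, no trend, TMM (trimmed mean of M values) scaling and each library left out. The models were tested on simulated data.

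Named exons were those called in any of 9 comparisons without or with the block, the 12 of smallest p in the averaged effect, the 3 largest non-overlapping rises and falls per line, the 3 of smallest p per difference or construct effect, the 2 per other readout, listed-gene members at an unadjusted p under 0.05, and 3 on each side of the intron limit. Other called events in the read readouts were named after their values were seen. The values of 1 called exon are not reported here.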

Additional observations from a re-analysis of the deposited data

How the results depend on the processing

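No named exon's difference changed direction under any alternative run; of their values 1541 kept direction and side of the threshold, 85 lost and 40 gained a call. Called exons in the averaged comparison (4, beside 2.19% of all events) numbered 8 with the replicate block (4.27%) and 12 with the quasi-binomial model and the block (3.86%). Such calls numbered 2 at a minimum of 20 reads and 12 with introns up to 1000 nt, where the number of tested exons differs and is not given here. They numbered 0 to 10 with 1 library left out, with or without the block: without the block 4 without replicate 1 of empty-vector TIP60 siRNA, 1 without either wild-type control library, replicate 1 of wild-type TIP60 siRNA or replicate 2 of dead TIP60 siRNA, and 0 without any of the other 7. Per line, calls (0) numbered 1 in empty-vector cells with the share of isoform-specific reads, 1 in wild-type TIP60 cells with the block (0 to 1 with 1 library left out), and in dead TIP60 cells 2 with the share of reads and 1 with the quasi-binomial model and block (0 to 2 with 1 library left out). The share of reads also gave 1, 2 and 1 calls for the wild-type against empty-vector, dead against empty-vector and dead against wild-type effects. It gave 1 call for the dead construct, and WDR74 was called in 3 of these 4 comparisons. For the share of reads, calls over all events were not counted. The block gave 3 calls of neither-form reads. Event-read calls (5) numbered 0 with TMM scaling, 56 with TMM scaling and the block, 65 with the block, 3 with introns up to 300 nt and 0 to 1 with 1 library left out.

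At an unadjusted p under 0.05, lower exons in the empty-vector line (11) numbered 6 at 20 reads, 23 with no minimum, 25 with the block, 18 with the quasi-binomial model, 29 with that and the block, 31 with introns up to 1000 nt, and 9 to 25 with 1 library left out. In wild-type TIP60 cells (6) the same settings gave 3, 17, 11, 15, 20, 21 and 4 to 13, with 10 on log2 odds and 11 for the share of reads. In dead TIP60 cells (19) they were 29 with no minimum, 32 with the block, 30 with the quasi-binomial model, 33 with that and the block, 11 with only the compared libraries, 11 and 43 with introns up to 300 and 1000 nt, and 9 to 37 with 1 library left out. In the averaged comparison (25) they were 43 with no minimum, 46 with the block, 47 with the quasi-binomial model and block, 66 with introns up to 1000 nt, and 22 to 50 with 1 library left out.

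Higher exons in empty-vector cells (0) numbered 3 with no minimum, 1 for the share of reads, 3 with the block, 2 with only the compared libraries, 4 with introns up to 1000 nt, and 0 to 5 with 1 library left out. In wild-type TIP60 cells (0) they were 2 with the quasi-binomial model without and 2 with the block, 1 with introns up to 1000 nt, and 0 to 4. In dead TIP60 cells (2) they were 1 on log2 odds, 1 with introns up to 300 nt, 5 with introns up to 1000 nt, 0 for the share of reads, the quasi-binomial model without and with the block and only the compared libraries, and 0 to 6. In the averaged comparison (1) they were 3 with no minimum, 4 with the block, 6 with introns up to 1000 nt, 0 on log2 odds, the share of reads, the quasi-binomial model and no variance trend, and 0 to 5. The number of tested events changes with the read minimum and the intron limit, and these counts have no share over all events beside them. Over all events the lower share in empty-vector cells was 5.12% in limma and 8.94% with the block. In the averaged comparison it was 9.76% and 15.6%. The counts alone therefore do not show a changed response of the same exons, and the causes of these changes were not tested.

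With 2 libraries a group and as few as 10 isoform-specific reads per library, precision was low for the events with fewest reads, and 125 of the 373 events could not be tested. The block, the combinations with it and the omissions under it follow the pairing of same-number libraries. TMM scaling with the block, and the omissions under the block, were chosen after seeing the data.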
